A study of Mus musculus with 8 samples.

Results

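Rab GTPases, the small proteins that steer vesicles between the membranes of a cell, were followed in mouse ventral prostate together with Rep15, an effector protein of Rab15. The set held every gene whose symbol starts with Rab and a digit, leaving out symbols that name GTPase-activating, exchange, interacting or effector proteins (gap, gef, ip, ep or fip after the number), plus Rep15. It came to 54 of the 12393 named genes on the array: Rep15, 50 Rab GTPases and 3 further symbols that fit the spelling but encode no Rab GTPase. These are Rab5if, named as a Rab5 interacting factor, Rab3il1, an exchange factor for Rab GTPases, and Rab26os, a transcript opposite Rab26. Each gene was represented by the probe set that named it alone and had the highest mean over the 8 arrays.

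The samples were ventral prostates of FVB mice aged 20 weeks. Wild type mice gave 4 samples labelled normal, and transgenic mice with an active p110 beta allele (p110 beta is one of the catalytic subunits of PI3-kinase) gave 4 samples labelled as mouse prostatic intraepithelial neoplasia. The promoter that drives the transgene is not given in the sources used here, and no label states that the arrays are from different animals. The p-values therefore refer to the spread between samples, and part of that spread may be technical. Values are log2 intensities after RMA. The question was which Rab genes, and which genes around them, differ between the normal gland and the lesion.

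A Rab GTPase is anchored in a membrane by lipid tails and works as a switch. Exchange factors (GEFs) load it with GTP, the active form recruits effectors such as tethers and motors, and GTPase-activating proteins (GAPs) turn it off, after which GDI takes it out of the membrane. Each Rab marks certain membranes: Rab5 early endosomes, Rab7 late endosomes, Rab11 recycling endosomes, Rab1 and Rab2 the route between ER and Golgi, and Rab3 and Rab27 secretory granules. The prostate epithelium is a secretory tissue, and its cells rely on such granules and on sorting to an apical surface. Rab15 acts between early and recycling endosomes, and Rep15 binds its active form and takes part in the recycling of the transferrin receptor.

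The median log2 value of an array was 5.4 to 5.5. The secretory gene Pbsn, which encodes probasin, went from 12.85 ± 0.35 to 11.57 ± 0.45 (SD, n = 4 each; limma adjusted p = 0.0036), and none of the 8 luminal epithelial markers measured was below every array median in all samples. Cell type markers moved with the groups. Of those 8 luminal markers 5 rose and 0 fell, and their mean log2 level ranged from 10.13 to 10.33 in wild type and from 10.88 to 10.91 in transgenic samples. Of 10 basal markers 4 fell (6.59 to 6.82 against 6.18 to 6.29), of 10 smooth muscle markers 2 fell (8.05 to 8.76 against 7.73 to 8.06), and of 10 fibroblast markers 2 fell (6.36 to 7.46 against 6.26 to 6.44). Of 9 macrophage markers 1 rose (5.13 to 5.85 against 5.61 to 5.72), and none of 9 lymphocyte or 10 endothelial markers passed in limma. However, 7 of the lymphocyte, 6 of the endothelial and 4 of the macrophage markers lay below every array median in all samples. A change in those cells could therefore be missed. In bulk tissue, fewer cells of a type and less RNA per cell cannot be told apart. The part of cell makeup in the results below was measured only through a stromal score, described after the family.

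Promoters are shown for 3 members that passed the test in the comparison below, of which Rab31 and Rab11a rose and Rab34 fell. The windows run from 250 bases before to 50 bases after a gene start, are from RefSeq on build GRCm38.p6, and are written 5′ to 3′ on the gene's strand, with the GC box GGGCGG in capitals on either strand. Rab31 lies at chr17:65772703-65773002 (minus strand), Rab11a at chr9:64737707-64738006 (minus strand), and the second of the starts listed for Rab34, chosen because it holds the box, at chr11:78188498-78188797 (plus strand).

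Rab31: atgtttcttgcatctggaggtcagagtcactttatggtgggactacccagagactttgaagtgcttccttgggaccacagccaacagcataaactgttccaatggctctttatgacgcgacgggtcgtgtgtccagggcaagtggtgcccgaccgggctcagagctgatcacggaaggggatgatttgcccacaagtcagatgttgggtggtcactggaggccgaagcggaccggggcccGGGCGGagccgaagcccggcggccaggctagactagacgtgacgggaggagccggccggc

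Rab11a: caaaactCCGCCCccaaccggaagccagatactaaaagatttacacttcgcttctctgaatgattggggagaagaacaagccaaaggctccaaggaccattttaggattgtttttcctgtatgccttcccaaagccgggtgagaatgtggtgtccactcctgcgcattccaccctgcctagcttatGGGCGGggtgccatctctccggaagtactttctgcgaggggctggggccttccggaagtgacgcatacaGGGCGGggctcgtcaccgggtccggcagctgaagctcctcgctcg

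Rab34: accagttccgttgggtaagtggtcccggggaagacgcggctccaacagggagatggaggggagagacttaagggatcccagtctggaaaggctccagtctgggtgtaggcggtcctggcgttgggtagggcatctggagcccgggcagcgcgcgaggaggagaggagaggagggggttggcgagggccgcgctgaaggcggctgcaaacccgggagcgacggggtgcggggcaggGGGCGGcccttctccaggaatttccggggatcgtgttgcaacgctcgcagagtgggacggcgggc

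The Rab31 window held 19 CG pairs and 1 GC box, the Rab11a window 16 CG pairs and 3 GC boxes, and this Rab34 window 25 CG pairs and 1 GC box. Among the 61 windows found for 45 members, 67.2% held GGGCGG, against 35.7% of all 32851 windows in the table, and the median number of CG pairs was 19 against 7. The full set of windows was neither limited to genes on the array nor matched to the members, so these shares only describe the windows. CCAAT stood in 41.0% of the member windows and 37.4% of all windows, and TATAAA in 4.92% and 13.6%, both strands searched in each case. The E-box CACGTG was in 13.1% and 7.15%, and the AP-1 letters TGANTCA were in 3.28% and 7.81%. The window at the first start listed for Rab34, not printed here, held 13 CG pairs, no GC box and 1 match to the AP-1 letters, so the box was present at 1 of its 2 starts. A match describes the letters and not a bound site.

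Of the 54 members, 4 rose in transgenic samples, 5 fell and 45 did not pass (limma, Benjamini-Hochberg adjusted p under 0.05 over all 22626 probe sets). Rep15 stood apart by size: it was the member with a change over 2-fold, and every other member changed by less. The other members that rose were Rab31, Rab27b and Rab11a, and those that fell were Rab4a, Rab38, Rab34, Rab5if and Rab26os. The members called make 16.7% of the set, where 11.0% of all genes passed. The shares were 7.41% higher against 5.99% of all genes, and 9.26% lower against 4.98%. Among the 50 Rab GTPases alone, 3 rose and 3 fell, 12.0% in all, close to the share of all genes. The median log2 fold change was 0.0055 over the members and -0.04 over all genes. A reading of these shares has to allow for brightness: both group means were below the median of every array for 22.2% of members and for 40.7% of all genes.

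The groups did not overlap for 17 members, 9 higher and 8 lower in transgenic samples. That is 31.5% of members, where 16.3% of all genes had groups that did not overlap (8.09% higher and 8.20% lower). The median size of the difference was 0.43 on the log2 scale over these 17 members, from 0.14 to 4.35, and 0.49 over the 2019 genes of the array whose groups did not overlap. Over all 54 members it was 0.18, against 0.14 over all genes.

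**Figure D1:**
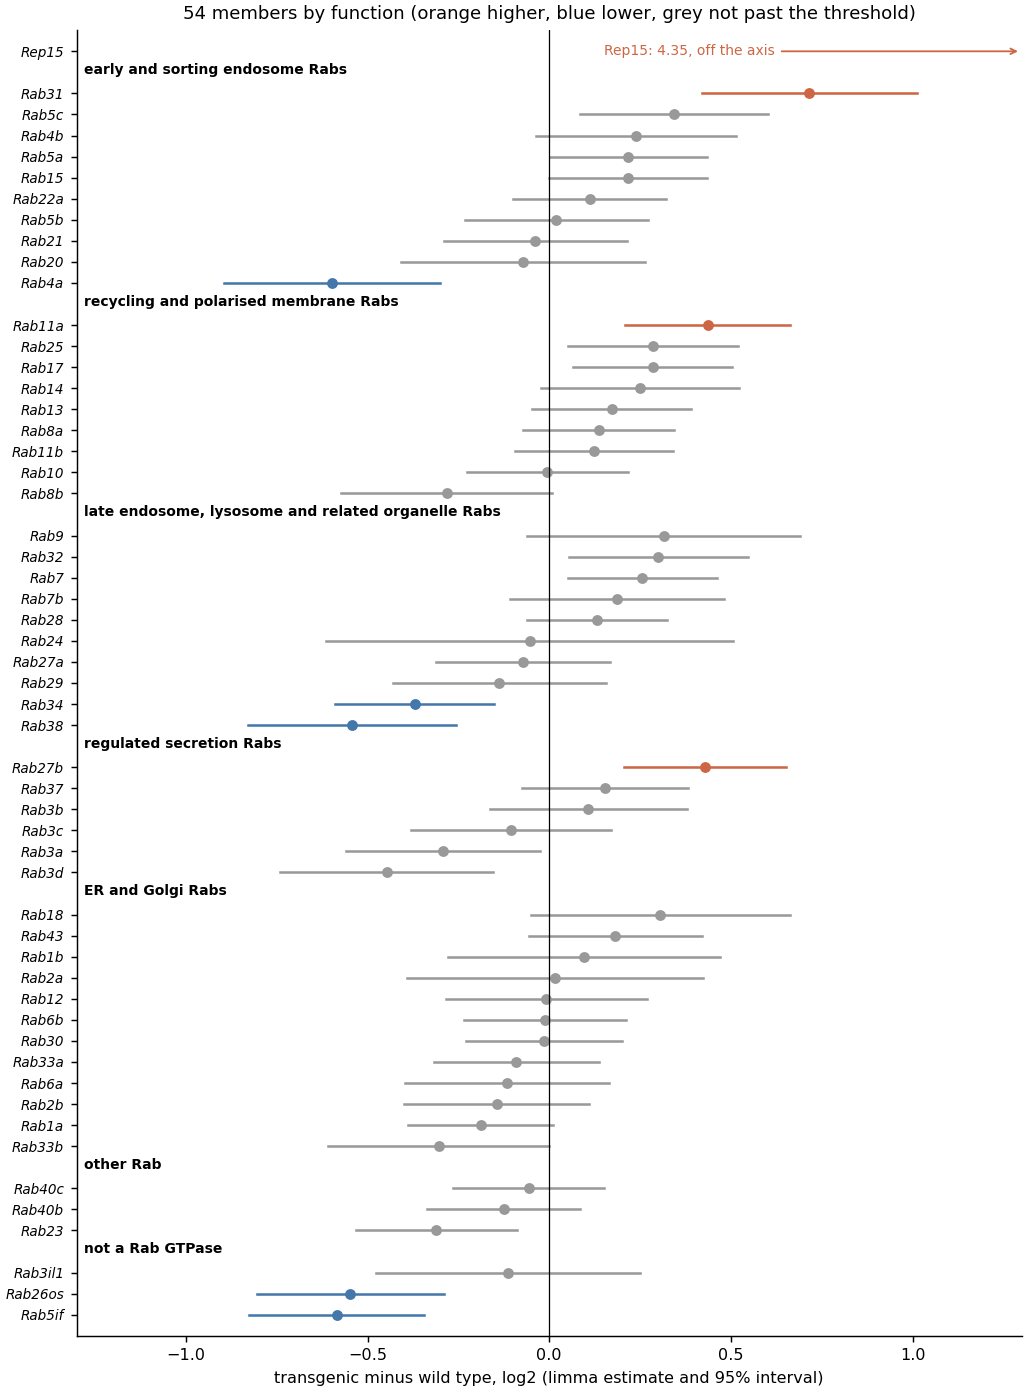
Transgenic minus wild type differences of the 54 members on the log2 scale (x axis), ordered by function, with points at the limma estimate and lines for its 95% interval. Rep15, at 4.35, lies beyond the axis, and every other member lies between -0.60 and 0.72.

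Rep15 is considered first, with its partner. In wild type samples 1 to 4 Rep15 measured 3.99, 4.27, 4.16 and 4.37, and in transgenic samples 1 to 4 it measured 7.74, 8.76, 9.12 and 8.58 on the log2 scale. All transgenic samples were far above all wild type samples, and transgenic sample 1 was the lowest of its group. The means were 4.20 ± 0.16 and 8.55 ± 0.59 (SD, n = 4 each), a difference of 4.35 ± 0.24 (SE), which is 20.4-fold (limma adjusted p = 8.5e-07). Its rise was the 6th largest of the 12393 genes. Since its wild type mean was lower than all array medians, in the range of background signal, the fold is approximate. Leaving out each array in turn gave differences from 4.16 to 4.62.

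Rab15, the GTPase that Rep15 binds, measured 11.00, 10.81, 10.95 and 11.15 in wild type samples and 11.14, 11.21, 11.26 and 11.16 in transgenic samples. The groups overlapped only between wild type sample 4 and transgenic sample 1. The difference was 0.22 ± 0.10 (SE; 95% interval -0.00087 to 0.43) and did not pass (adjusted p = 0.24). A small rise of Rab15 therefore lies within the interval. Tfrc, which encodes the transferrin receptor, differed by 0.16 (95% interval -0.13 to 0.44) and did not pass either (adjusted p = 0.57).

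The genes next to Rep15 on its chromosome were looked at too. Of the 8 nearest protein-coding neighbours in the RefSeq order, 4 on each side, 3 were measured. Mrps35, a mitochondrial ribosome gene adjoining Rep15, was at 6.80 ± 0.27 and 7.31 ± 0.41 (SD, n = 4 each; adjusted p = 0.15). Klhl42 differed by -0.24 and Arntl2 by 0.0033, and neither passed (adjusted p = 0.39 and 0.99).

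**Figure D2:**
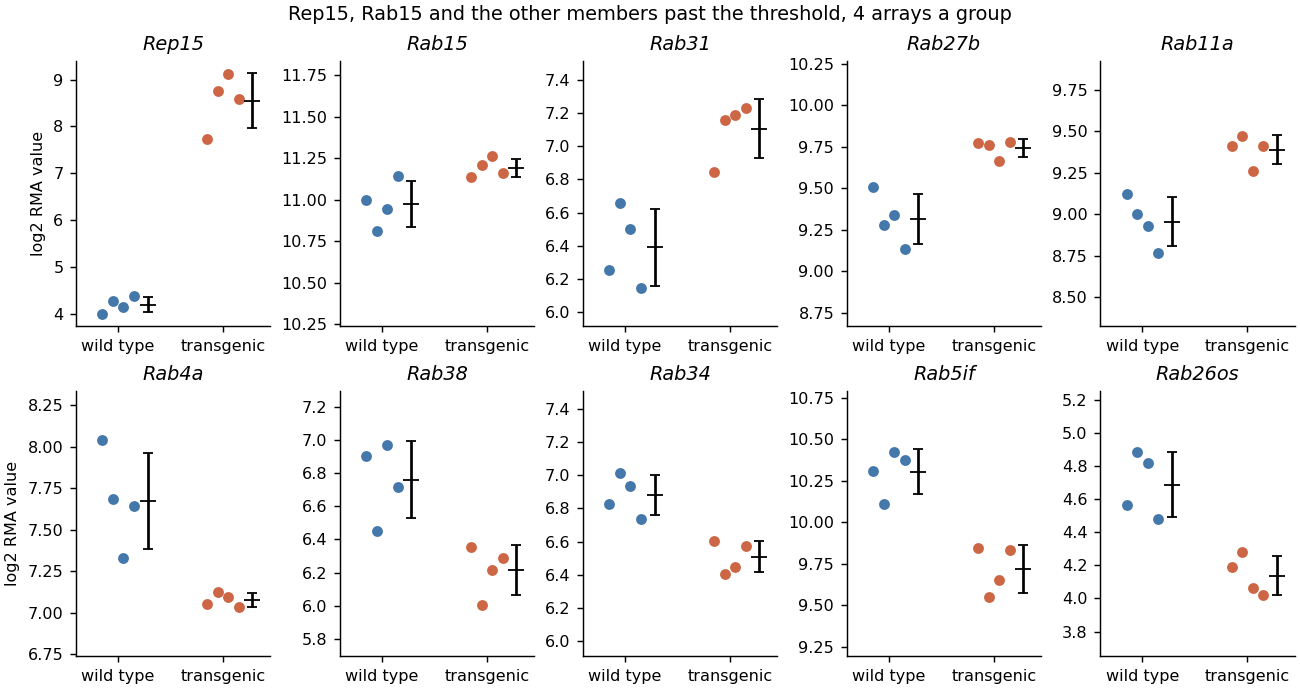
Log2 RMA values (y axis) of Rep15, Rab15 and the other 8 members past the threshold in the 4 wild type (blue) and 4 transgenic (orange) samples, drawn in the order 1 to 4, with the group mean and SD as a black bar. Each panel but that of Rep15 spans the same range, and the groups overlap for Rab15 alone.

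Rabs of early and sorting endosomes changed in both directions. Of 10 measured, 1 rose, 1 fell and 8 did not pass. Their median difference was 0.16, and 7 of the 10 were above 0, where 27 of the 54 members and 41.6% of all genes were. Rab31, of the Rab5 subfamily and active between the trans-Golgi network and endosomes, measured 6.25, 6.66, 6.50 and 6.14 in wild type and 6.84, 7.16, 7.19 and 7.23 in transgenic samples. Transgenic sample 1 was again the lowest of its group, and still above every wild type sample. The rise was 0.72 ± 0.13 (SE), or 1.64-fold (adjusted p = 0.0058). Its second probe set, at 0.29, did not pass (adjusted p = 0.34).

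Rab4a, which drives fast recycling from early endosomes to the cell surface, went the other way. It measured 8.04, 7.68, 7.33 and 7.64 in wild type and 7.05, 7.13, 7.10 and 7.03 in transgenic samples, so that wild type exceeded transgenic 1.51-fold (adjusted p = 0.016). The transgenic samples lay close together and the wild type samples were spread over a wider range. The probe set used is marked as shared between transcripts, and the other Rab4a probe set fell too, by 0.78 (adjusted p = 0.0038). Without transgenic sample 4 the adjusted p was 0.052. Its close relative Rab4b differed by 0.24 (adjusted p = 0.32). The Rab5 genes, whose products direct fusion of early endosomes, did not pass: Rab5c differed by 0.34 (adjusted p = 0.10), Rab5a by 0.22 (0.23) and Rab5b by 0.02 (0.95).

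Among 9 Rabs of recycling endosomes and polarised membranes 1 rose, 0 fell and 8 did not pass. A difference above 0 was seen for 7 of the 9, for 27 of the 54 members and for 41.6% of all genes. In the groups described below, 5 of 10 late endosome, 3 of 6 secretion and 4 of 12 ER and Golgi Rabs were above 0. These shares are not matched for brightness: 0 of the 9 had both means below every array median, against 40.7% of all genes. Rab11a, a main regulator of the recycling endosome, measured 9.12, 9.0, 8.93 and 8.77 in wild type and 9.41, 9.47, 9.26 and 9.41 in transgenic samples. All 4 transgenic samples were above all wild type samples. The rise was 0.44 ± 0.10 (SE), 1.35-fold (adjusted p = 0.021), and the second Rab11a probe set rose by 0.45 (adjusted p = 0.024). The call was lost without wild type sample 3, transgenic sample 2 or transgenic sample 4, with adjusted p up to 0.075.

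Rab25 and Rab17, which are known from epithelial cells, had groups that did not overlap but missed the threshold. Rab25, of the Rab11 subfamily, was at 8.82 ± 0.18 and 9.11 ± 0.05 (SD, n = 4 each; adjusted p = 0.14). Rab17, linked to transcytosis, differed by 0.28 ± 0.10 (SE; adjusted p = 0.11), with its second probe set at 0.29 as well. Rab14, a Rab of Golgi and endosomes, differed by 0.25 (95% interval -0.02 to 0.52), and its 6 probe sets ranged from 0.08 to 0.25 with none past the threshold in limma. Rab8b was the lowest of this group, at -0.28 (adjusted p = 0.25). Rab10, which serves exocytosis and basolateral transport, differed by -0.0048 (95% interval -0.23 to 0.22).

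Of 10 Rabs of late endosomes, lysosomes and related organelles 0 rose, 2 fell and 8 did not pass. Rab38, which acts in the making of lysosome-related organelles such as melanosomes, measured 6.90, 6.45, 6.97 and 6.72 in wild type and 6.36, 6.0, 6.22 and 6.29 in transgenic samples. Wild type sample 2 came close to transgenic sample 1 without crossing it. The fall was 0.54 on the log2 scale with an SE of 0.13, or 1.46-fold (adjusted p = 0.022). That call was lost without wild type sample 3, transgenic sample 2 or transgenic sample 3 (adjusted p up to 0.079). Rab32, the closest relative of Rab38, differed by 0.30 in the other direction without passing (adjusted p = 0.13), with both means below every array median.

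Rab34, known for lysosome positioning and the building of cilia, measured 6.83, 7.01, 6.93 and 6.74 in wild type and 6.60, 6.41, 6.45 and 6.57 in transgenic samples. The groups did not overlap, and the level was 1.29-fold higher in wild type (adjusted p = 0.038). Its second probe set, at -0.27, did not pass, and the call held in 3 of 8 fits that left out 1 array: it was lost without wild type sample 2 or 3 or transgenic sample 2, 3 or 4 (adjusted p up to 0.13). Rab7, the Rab of fusion with lysosomes, was at 9.98 ± 0.10 and 10.24 ± 0.07 (SD, n = 4 each; adjusted p = 0.12), while its other probe set rose by 0.43 (adjusted p = 0.033). Rab9, which returns receptors from late endosomes to the Golgi, differed by 0.31 (adjusted p = 0.34). Rab27a, which acts on melanosomes and secretory granules, differed by -0.07 (adjusted p = 0.78), with both means below every array median.

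Of 6 Rabs of regulated secretion, 1 rose, 0 fell and 5 did not pass. Rab27b, which docks secretory granules and exosome-bearing bodies at the plasma membrane, measured 9.51, 9.28, 9.34 and 9.13 in wild type and 9.77, 9.76, 9.66 and 9.78 in transgenic samples. Every transgenic sample was above the highest wild type sample, which was sample 1. The rise was 0.43 ± 0.10 (SE), 1.35-fold (adjusted p = 0.020), and the second probe set rose by 0.80 (adjusted p = 0.032). The call of the first was lost without wild type sample 2 or 3 or transgenic sample 2 or 4 (adjusted p up to 0.065).

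Rab3d, found on the granules of exocrine cells, measured 9.59, 9.18, 9.26 and 9.43 in wild type and 9.06, 9.03, 8.99 and 8.59 in transgenic samples. These groups did not overlap either, with transgenic sample 4 the lowest. The difference of -0.45 ± 0.13 (SE) narrowly missed the threshold (adjusted p = 0.058). Of the 4 Rab3d probe sets, which ranged from -0.71 to -0.14, the lowest passed (adjusted p = 0.0061). Under quantile normalization the probe set used passed as well (adjusted p = 0.017), as it did under cyclic loess (0.027), without the dimmest probe sets (0.049) and with the stromal score (0.041). This probe set did not pass with array weights, a trend with a robust prior or a replicate block. Nor did it pass in any of the 8 fits that left out 1 array (limma adjusted p from 0.055 to 0.15). Rab3a, the granule Rab best known from neurons, differed by -0.29 (adjusted p = 0.19), and Rab37 and Rab3c had both means below every array median.

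**Figure D3:**
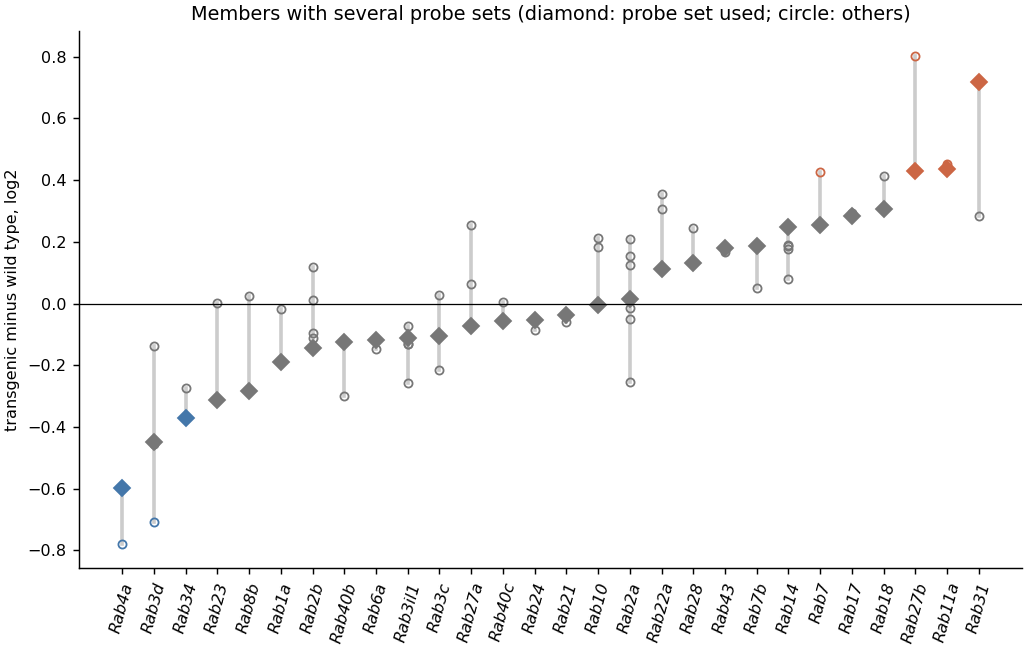
Transgenic minus wild type differences on the log2 scale (y axis) for each probe set of the 28 members that have several, with a diamond for the probe set used, open circles for the others, and colour for those higher (orange) or lower (blue) past the threshold. Both probe sets of Rab11a, Rab27b and Rab4a passed in the same direction, and 1 of 2 did for Rab31 and Rab34.

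Of 12 Rabs of the ER and Golgi none passed in limma, 1 had an unadjusted p under 0.05, and in each of the 17 alternatives none passed either. Rab1a, which tethers vesicles from the ER to the Golgi, was at 11.92 ± 0.08 and 11.73 ± 0.06 (SD, n = 4 each; adjusted p = 0.27), with groups that did not overlap and a 95% interval from -0.39 to 0.0098. Rab33b, a Golgi Rab with a part in autophagy, had the smallest p of the group and differed by -0.30 (adjusted p = 0.24). The 7 probe sets of Rab2a ranged from -0.25 to 0.21. The group's median was -0.01, and its members lay between -0.30 and 0.31.

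The Rabs placed in no group above were Rab23, Rab40b and Rab40c, and none passed. Rab23, which restrains hedgehog signalling and acts at the cilium, was at 5.03 ± 0.16 and 4.72 ± 0.02 (SD, n = 4 each; adjusted p = 0.082), with groups that did not overlap, both means below every array median, and a second probe set at 0.0020.

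The symbols that encode no Rab GTPase held 2 of the 5 falls. Rab5if measured 10.31, 10.11, 10.42 and 10.37 in wild type and 9.84, 9.55, 9.65 and 9.83 in transgenic samples. The groups were clearly apart, and wild type exceeded transgenic 1.5-fold (adjusted p = 0.0057). Rab26os measured 4.56, 4.89, 4.82 and 4.48 in wild type and 4.19, 4.28, 4.06 and 4.02 in transgenic samples (adjusted p = 0.012), and both means were lower than all array medians, which makes the size approximate. Rab3il1 differed by -0.11 (adjusted p = 0.78).

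Smooth muscle and fibroblast markers, each centred on its own mean, were averaged into a stromal score per sample. It was 0.25 ± 0.38 for the wild type group and -0.25 ± 0.10 for the transgenic group (SD, n = 4 each; exact two-sided permutation p = 0.0286, the smallest that 70 assignments of the arrays allow). With this score as a covariate 5 of the 9 called members kept their call and all 9 kept their direction. Rep15 was at 4.61 (limma adjusted p = 4.7e-05), Rab31 at 1.01 (0.0050), Rab38 at -0.75 (0.037), Rab4a at -0.77 (0.0499) and Rab5if at -0.70 (0.033). Rab11a, at 0.40, Rab27b, at 0.35, Rab34, at -0.26, and Rab26os, at -0.37, lost their calls (adjusted p = 0.24, 0.31, 0.47 and 0.31). The score did not overlap between the groups, but only narrowly: wild type sample 1 was at -0.165 and transgenic sample 4 at -0.169. The highest wild type value, of sample 2, was 0.74. With the score as a covariate the SE was larger. For Rab11a the SE went from 0.10 to 0.16, and for Rab27b from 0.10 to 0.15. A lost call therefore cannot tell lower precision from a part of the stroma. The part of luminal and basal cell shares, which moved with the same samples, was not tested.

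The regulators and effectors of Rabs were then examined through 5 lists with 101 measured genes in all. Of these 8 rose and 8 fell, 7.92% each way, where 5.99% of all genes rose and 4.98% fell. These shares are not matched for brightness: both group means were below every array median for 18.8% of the listed genes and 40.7% of all genes. Changes were below 2-fold throughout the lists. With the stromal score as a covariate all 16 kept their direction, but none of the 8 rises kept its call in limma, and 4 of the 8 falls did: Hps1, Uso1, Myo5a and Zfyve27. Calls held whichever array was left out for Dennd2d, Snx1, Uso1 and Myo5a.

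Among 20 Rab GEFs 1 rose, 2 fell and 17 did not pass, so 15% were called, where 11.0% of all genes were. Dennd2d, of the DENN family of GEFs, went from 6.38 ± 0.27 to 7.12 ± 0.08 (SD, n = 4 each), a rise of 0.74 (adjusted p = 0.0038). With the stromal score the difference was 0.49 and did not pass (adjusted p = 0.15). The fall of Hps1, part of the exchange factor for Rab32 and Rab38, was 0.52 in size on the log2 scale, from 5.78 ± 0.21 to 5.26 ± 0.18 (SD, n = 4 each; adjusted p = 0.028). It missed the threshold without wild type sample 1, 3 or 4 or transgenic sample 2 or 3 (adjusted p up to 0.092). Dennd1a, a GEF for Rab35, fell by 0.49 (adjusted p = 0.016), a call lost without transgenic sample 2, 3 or 4 (adjusted p up to 0.058). The transgenic means of Hps1 and Dennd1a lay below every array median.

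Of 20 Rab GAPs 2 rose, 1 fell and 17 did not pass, so 15% were called, where 11.0% of all genes were. Tbc1d1, a substrate of the kinase AKT in muscle, rose by 0.62 (adjusted p = 0.014), Tbc1d14, which acts on recycling endosomes in autophagy, rose by 0.49 (adjusted p = 0.038), and Tbc1d15, a GAP for Rab7, fell by 0.51 (adjusted p = 0.024). In each case 1 of 3 probe sets passed, and the other probe sets of Tbc1d1 reached down to -0.23. The call of Tbc1d1 was lost without transgenic sample 2 (adjusted p = 0.051). Tbc1d14 kept its call only without wild type sample 1, with adjusted p up to 0.12 without any other array. For Tbc1d15 the call was lost without wild type sample 2 or 3 or transgenic sample 2, 3 or 4 (adjusted p up to 0.081).

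Of 6 genes that attach lipid tails to Rabs or extract them from membranes, none was called by limma and none had an unadjusted p under 0.05. Chml, which presents new Rabs for lipid attachment, had the smallest p, at -0.18 (adjusted p = 0.40), with both means below every array median.

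Of 36 Rab effectors 1 rose, 5 fell and 30 did not pass, and the list's median was -0.0098. The shares were 2.78% higher and 13.9% lower, where 5.99% of all genes rose and 4.98% fell. Both means were below every array median for 27.8% of the list and 40.7% of all genes. Uso1, the p115 tether that Rab1 recruits to vesicles bound for the Golgi, went from 10.86 ± 0.24 to 10.23 ± 0.15 (SD, n = 4 each; adjusted p = 0.010). Rab11fip5, which links Rab11 to recycling endosomes, fell by 0.67 (adjusted p = 0.026), while Rab11a itself rose. Its call was lost without wild type sample 3 or transgenic sample 2, 3 or 4 (adjusted p up to 0.084). Myo5a, a motor that carries Rab27 granules, fell by 0.61 (adjusted p = 0.014), with both means below every array median and 1 of its 2 probe sets past the threshold. The remaining effectors that fell were Sytl1, a binding partner of Rab27, at -0.53, and Zfyve27, a protein of neurite recycling traffic, at -0.51. Sytl1 lost its call without transgenic sample 2 or 4 (adjusted p up to 0.054), and Zfyve27 without wild type sample 3 or transgenic sample 3 (adjusted p up to 0.052). The number of effectors that fell was 3 without wild type sample 3 or transgenic sample 2, 3 or 4. That number was also 3 with the stromal score, and it was 2 without shared probe sets. Mical1, the effector that rose, was below every array median in both groups (0.66, adjusted p = 0.020), and its call was lost without wild type sample 3 or transgenic sample 2, 3 or 4 (adjusted p up to 0.070).

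The machinery of endosomal recycling, which holds the retromer, sorting nexins, EHD proteins, the exocyst and the transferrin receptor, had 4 genes that rose and 0 that fell among 19, with 15 not passing and a median of 0.16. The number that rose was 2 without transgenic sample 2 or 4, and also 2 under quantile normalization, with the mean of probe sets and without shared probe sets. With the replicate block 2 rose, and with the stromal score 1 did, a gene other than these 4. Snx1, a sorting nexin that works with the retromer, went from 8.18 ± 0.07 to 8.64 ± 0.07 (SD, n = 4 each; adjusted p = 0.0073). With the stromal score the difference was 0.48 and missed the threshold (adjusted p = 0.091). Ehd4, of the EHD family that shapes recycling endosomes, rose by 0.51 (adjusted p = 0.021), a call lost without transgenic sample 4 (adjusted p = 0.063). Snx4, which returns cargo from early endosomes, rose by 0.51 (adjusted p = 0.017), lost without wild type sample 3 or transgenic sample 2 (adjusted p up to 0.064), and its other probe set stood at -0.13. The retromer subunit gene Vps29 rose by 0.40 (adjusted p = 0.035), with 1 of its 4 probe sets past the threshold. Its call held only without wild type sample 3, with adjusted p up to 0.081 without any other array. Zfyve27, Sytl1 and Vps29 were named after their values were seen. The same holds for family members outside the naming rule given below, among them Rab3d, Rab25 and Rab17.

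**Figure D4:**
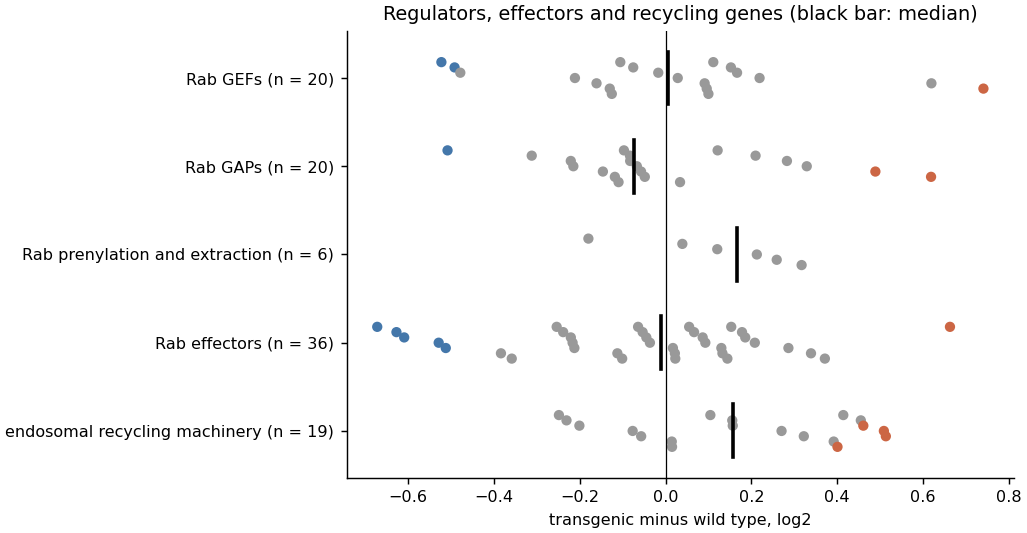
Transgenic minus wild type differences on the log2 scale (x axis) of the measured genes in 5 lists around the Rab GTPases, 1 point a gene, coloured where past the threshold (orange higher, blue lower), with a black bar at each list's median. The medians lie between -0.07 for the GAPs and 0.17 for the prenylation and extraction genes. The recycling list holds 4 called genes, all higher, which is 21.1% of the list, where 5.99% of all genes rose.

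The call of 4 of the 9 members, Rep15, Rab5if, Rab31 and Rab26os, held whichever array was left out, and the number called fell from 9 to 5 without wild type sample 3, transgenic sample 2 or transgenic sample 4.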

How the data were processed

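Ventral prostate RNA was measured on Affymetrix mouse arrays after biotin labelling, per the labels' protocols, with 1 array for each sample. The authors deposited log2 values; the submitters' processing notes name RMA and give no version. RMA equalises the arrays, so a shift common to all transcripts would be removed. The table held 22690 probe sets, of which 64 controls were left out. Symbols came from the platform annotation and were updated through gene identifiers with RefSeq names of GRCm38.p6; 20380 probe sets had 1 symbol, 691 several and 1555 none. The 54 members had 103 probe sets, 26 of them with a single probe set.

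The model (limma 3.58.1, R 4.3.3, lmFit and eBayes) covered all 22626 probe sets (transgenic against wild type) and adjusted by Benjamini-Hochberg, threshold 0.05. The fit was tested on simulated data. The members, lists and alternatives were chosen with earlier results of these data known. Named were Rep15, Rab15, members past the threshold, up to 3 genes a list and direction, and, in each function group, the brightest member or that with the smallest p; further genes were named after their values were seen. Alternatives were 2 normalizations, leaving out the dimmest 40%, a trend with a robust prior, array weights, 2 rules for probe sets, a stromal covariate, a replicate block and fits without each of the 8 arrays. The number of arrays limits the precision.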

Additional observations from a re-analysis of the deposited data

Results flagged for a closer look

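In 5 of 108 groups of 4 samples (54 members in 2 groups), 1 sample lay far from the other samples of its group, as chance gives for about 1 in 20 groups. Rab27b was at 9.66 in transgenic sample 3, against 9.76 to 9.78 in the others. Rab3d was at 8.59 in transgenic sample 4, against 8.99 to 9.06. Rab9 was at 7.38 in transgenic sample 1, against 7.76 to 7.83. Rab22a was at 7.78 in wild type sample 4, against 7.53 to 7.56. Rab3c was at 4.53 in wild type sample 4, against 4.07 to 4.11.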

How the results depend on the processing

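Rep15 kept its direction and call in all 17 alternatives, at 4.16 to 4.62 on the log2 scale, and Rab15 stayed outside the threshold in the 16 that gave it a value, at 0.10 to 0.27. The count of members was 4 higher and 5 lower. With the stromal score 2 were higher, and with array weights and with the mean of probe sets 6 were. Array weights added calls for Rab32 and Rab5c, and the mean of probe sets for Rab17, Rab7 and Rab3d. Leaving out each array gave 2 to 5 higher and 3 to 6 lower members. Of the pathway genes, 8 higher and 8 lower, 14 were higher with array weights, 5 with the mean of probe sets, 4 without shared probe sets, 4 with the replicate block and 1 with the stromal score, which is not among the 8; 4 were lower without shared probe sets and 4 with the stromal score. Leaving out each array gave 3 to 10 higher and 3 to 10 lower pathway genes. Without shared probe sets Tbc1d1 turned to -0.23 (limma adjusted p = 0.34), where another of its probe sets is used. The deviations of same-numbered samples from their group means had correlations of mixed sign (-0.31, 0.24, -0.20 and 0.33). With so few samples these cannot settle whether the numbers pair samples. With the replicate block 7 members were called, without Rab27b (limma adjusted p = 0.052) and Rab34 (0.10). Other causes were not tested. Signals near background limit what can be seen: 12 members had both means below every array median.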
